A study of Homo sapiens with 6 samples.

Results

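The genes described here are 31 genes of cholesterol synthesis and sterol control, taken by symbol from the 61859 genes of a raw count table of IOMM-Lee cells. IOMM-Lee is 1 established cell line, labelled as malignant meningioma cells of grade 3 and used as a model of that tumour of the meninges. In the hypoxia group, 3 biological replicates spent 48 h in a hypoxia workstation at 0.2% oxygen. In the normoxia group, 3 biological replicates were kept under normal culture conditions and also collected at 48 h. Both groups were cultured at 37 °C under 5% CO2 in DMEM containing 10% fetal bovine serum, a source of lipoprotein cholesterol. The labels do not say whether replicates came from separate thaws or cultures, and the p-values measure only the spread between these libraries. The comparison addresses the RNA response to chronic hypoxia, here that of the enzymes that build cholesterol, including those that consume oxygen, and of the genes that sense, move and store it.

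Cells make cholesterol from acetyl-CoA. Early enzymes form mevalonate, the next set turns it into isoprenoid chains up to squalene, and a last set closes squalene into a ring and trims and reduces that ring to cholesterol. Molecular oxygen is a substrate at the steps of SQLE, CYP51A1, MSMO1 and SC5D, and these 4 enzymes are marked as oxygen-consuming throughout. Control sits in the endoplasmic reticulum. There SCAP carries the SREBP transcription factors, encoded by SREBF1 and SREBF2, towards the Golgi for cleavage when sterol is low. The INSIG proteins hold SCAP back when sterol is high.

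The hypoxia libraries held 10980973, 10619864 and 18447885 counts and the normoxia libraries 19554178, 14685317 and 16049763. Levels are CPM, the counts relative to the TMM-adjusted library total, and 3 counts in a library corresponded to 0.133 to 0.316 CPM. Each change is a log2 value of hypoxia over normoxia with its standard error (SE), and a gene is called when its adjusted p from edgeR's quasi-likelihood test over all 16411 tested genes is under 0.05. The oxygen-responsive gene ADM averaged 701 ± 73.2 CPM in hypoxia and 11.4 ± 1.77 CPM in normoxia, and CA9, NDRG1 and PDK1 were 13.1-fold, 87.6-fold and 5.67-fold higher in hypoxia (SD, n = 3 each). The first principal component separated hypoxia from normoxia and held 80.9% of the variance. Hypoxia replicate 3 lay at -47.7 on the second (7.83% of the variance), whereas hypoxia replicates 1 and 2 lay at 27.2 and 20.1. Of the meningioma and arachnoid markers, VIM averaged 6149 CPM in hypoxia and 3052 CPM in normoxia, DSP 274 and 91.1 CPM, and MUC1 25.7 and 6.04 CPM. SSTR2, PTGDS and CDH11 stayed near or under 1 CPM in every library. The summed level of 4 leukocyte markers was 0.722 to 1.12 CPM in hypoxia and 0.123 to 0.584 CPM in normoxia, and that of 4 epithelial markers was under 0.36 CPM in every library. The 5 glial and neural markers summed to 11.7 to 14 CPM in hypoxia and 17.4 to 22.2 CPM in normoxia, and the 4 endothelial markers to 1.69 to 4.94 and 3.24 to 4.14 CPM. Their part in the results was not tested. In bulk RNA, fewer cells of a kind and less RNA per cell cannot be told apart.

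All 31 genes passed the filter on low counts. Of them, 8 were called higher in hypoxia, 9 were called lower, and 14 were not called. That is 54.8% called, against 62.2% of all tested genes, 31.2% higher and 31% lower, so the share called was near the background of a comparison in which most genes moved. The median log2 change of the 31 genes was -0.23 and their median absolute change 0.63, beside 0.0094 and 0.71 over all tested genes. The hypoxia libraries lay above all normoxia libraries in 8 of the 31 genes and below them in 14, against 33.4% and 34.4% of all tested genes, 67.9% together. The counts by role follow, and differences between the roles were not tested. All 5 sensing and control genes were called, 3 higher and 2 lower. In the transport, export and storage group 4 of 6 were called higher and 1 lower. Among the 20 synthesis enzymes 1 was called higher and 6 lower, which is 35.0%. These counts depended on the processing. With library totals alone 0 enzymes were called higher and 13 lower, and with no filter on low counts 1 higher and 11 lower. Of the 5 sensing and control genes, 2 were called higher and 2 lower with library totals alone. Of the 4 oxygen-consuming enzymes edgeR called 0, limma-voom 0 and DESeq2 1, and at an unadjusted p under 0.05 edgeR gave 1 higher and 0 lower.

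**Figure D1:**
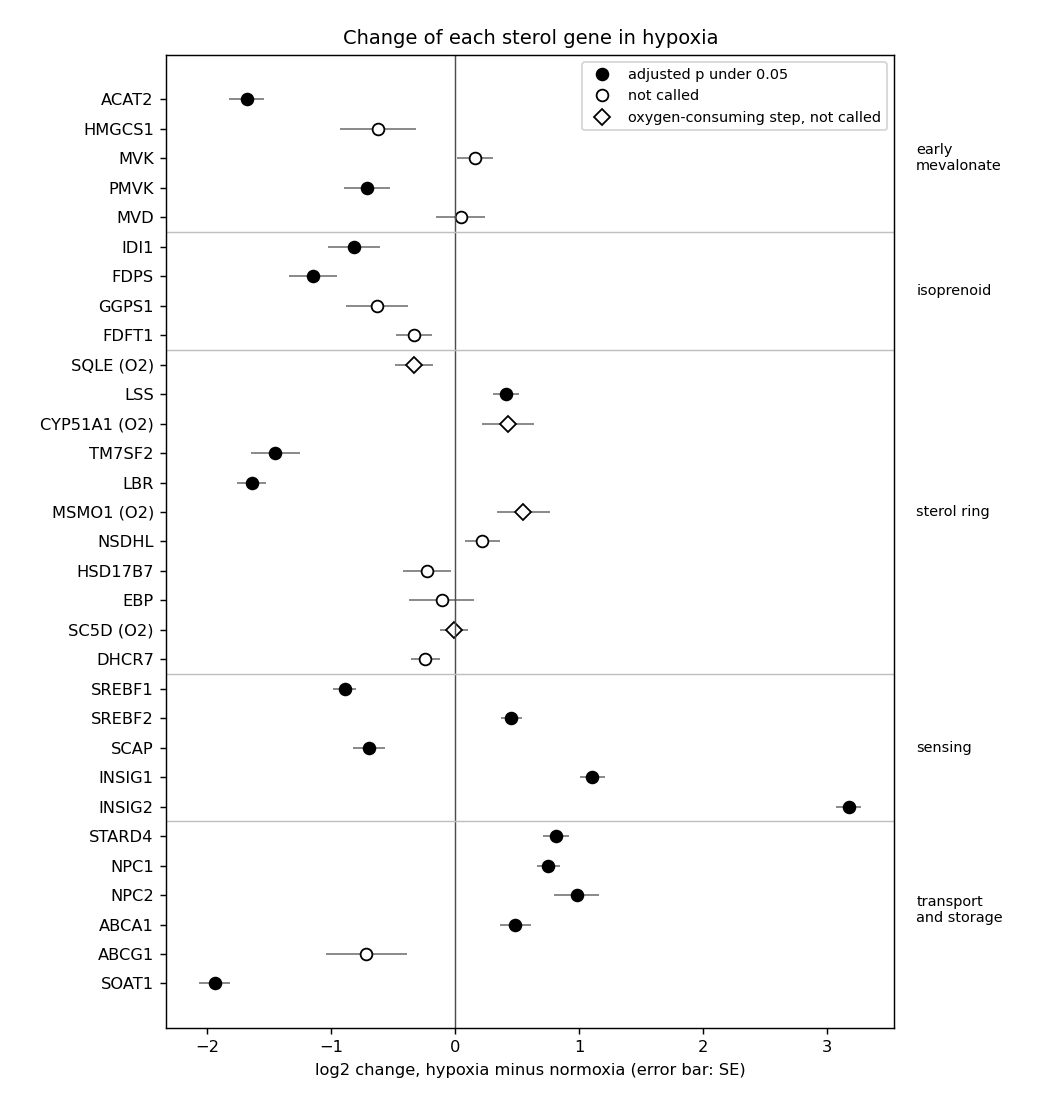
Log2 change of each of the 31 genes, hypoxia over normoxia, with bars of 1 SE, grouped by role, with diamonds for oxygen-consuming enzymes and filled symbols for called genes. INSIG2 stands farthest to the right at 3.18 and SOAT1 farthest to the left at -1.94, and the sensing and transport genes hold 7 of the 8 called rises.

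INSIG2, which encodes an endoplasmic reticulum protein that retains SCAP, had the largest change of the 31 genes. It had 177, 185 and 193 CPM in the hypoxia libraries and 18.9, 21.4 and 21.0 CPM in the normoxia libraries. The groups lay far apart, with little spread inside either. The rise was 9.05-fold, a log2 change of 3.18 ± 0.10 (edgeR adjusted p = 4.50e-09), and 98.5% of all tested genes had a lower log2 change. Its homolog INSIG1, in many cells itself a target of the SREBP factors, had 202, 204 and 167 CPM in hypoxia and 88.8, 88.0 and 88.8 CPM in normoxia. It rose 2.15-fold, a log2 change of 1.11 ± 0.10 (edgeR adjusted p = 5.29e-06). The INSIG1 values were nearly identical across normoxia, and hypoxia replicate 3 was the lowest of the hypoxia libraries.

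The balance of the INSIG pair was compared as the log2 difference of INSIG2 minus INSIG1 within each library. It was -0.19, -0.14 and 0.21 in hypoxia and -2.22, -2.03 and -2.07 in normoxia, so that the groups did not overlap. The difference between the group means was 2.07 (two-sided exact permutation p = 0.10, the smallest that 3 against 3 libraries allow, and 0.167 adjusted over 5 pairs). Per kilobase of annotated exon, INSIG2 stood at 0.896 of the INSIG1 level in hypoxia and at 0.214 of it in normoxia.

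The genes of the SREBP factors went opposite ways. SREBF2, whose product drives most cholesterol genes, had 299, 307 and 303 CPM in hypoxia and 224, 220 and 219 CPM in normoxia, and rose, a log2 change of 0.46 ± 0.08 (edgeR adjusted p = 0.000659). SREBF1, whose products act more on fatty acid genes, had 51.4, 52.3 and 52.3 CPM in hypoxia and 97.8, 92.0 and 99.4 CPM in normoxia, and fell 1.85-fold, a log2 change of -0.89 ± 0.09 (edgeR adjusted p = 1.12e-05). Neither gene's groups overlapped. With scaling by library totals alone, which moved the median of all genes by -0.31, the SREBF2 change was 0.15 (edgeR adjusted p = 0.207). The log2 difference SREBF1 minus SREBF2, taken within each library, averaged -2.54 in hypoxia and -1.20 in normoxia, a difference of -1.34 (two-sided exact permutation p = 0.10, 0.167 adjusted over 5 pairs). Per kilobase, SREBF2 stood 6.20 times as high as SREBF1 in hypoxia and 2.44 times as high in normoxia. SCAP, the escort of the SREBP precursors, had 32.4, 31.4 and 42.1 CPM in hypoxia and 58.3, 55.2 and 58.7 CPM in normoxia, and fell 1.62-fold (log2 change -0.70 ± 0.13, edgeR adjusted p = 0.000744). Hypoxia replicate 3 was the highest of its group for SCAP, yet still under every normoxia library.

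**Figure D2:**
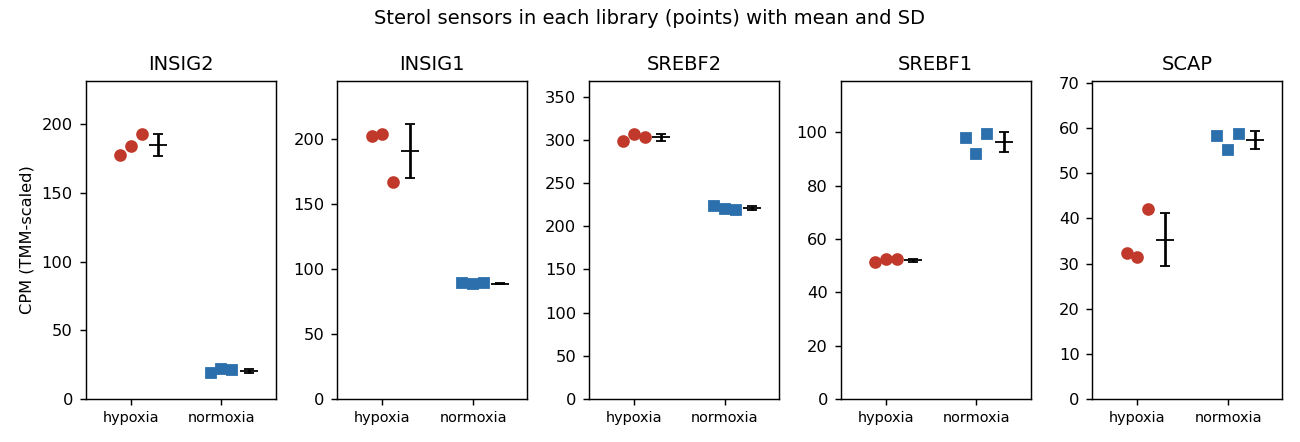
CPM of the 5 sensing and control genes, a panel each with its own axis from 0, hypoxia left of normoxia, with a point per library and bars for the mean and SD (n = 3). INSIG2 sits between 177 and 193 CPM in hypoxia and between 18.9 and 21.4 CPM in normoxia, while SREBF1 and SCAP lie lower in hypoxia.

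Upstream sequences of the INSIG and SREBF genes are shown because these 2 pairs of homologs moved by unequal amounts or in opposite directions. They are the bases before every annotated start inside the RefSeq promoter windows on GRCh38.p14, written 5′ to 3′ on the strand of the gene. Capitals mark matches, on either strand, to ACGTG (the core letters bound by hypoxia-inducible factors), to GCGTG (the same core with G in place of A) and to TCACNCCAC (letters of the sterol regulatory element that SREBP factors bind, with N for any base). INSIG2 is from chr2:118088221-118088451 on the plus strand and INSIG1 from chr7:155297628-155297775 on the plus strand. SREBF1 is from chr17:17837003-17837236 on the minus strand and SREBF2 from chr22:41832855-41833078 on the plus strand.
INSIG2: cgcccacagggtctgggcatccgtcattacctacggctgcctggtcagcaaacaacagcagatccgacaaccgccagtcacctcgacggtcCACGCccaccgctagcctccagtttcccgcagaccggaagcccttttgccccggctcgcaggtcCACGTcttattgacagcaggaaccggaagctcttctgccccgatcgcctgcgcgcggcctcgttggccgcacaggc
INSIG1: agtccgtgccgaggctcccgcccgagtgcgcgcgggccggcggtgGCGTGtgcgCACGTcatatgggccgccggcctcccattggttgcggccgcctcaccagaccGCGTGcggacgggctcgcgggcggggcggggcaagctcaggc
SREBF1: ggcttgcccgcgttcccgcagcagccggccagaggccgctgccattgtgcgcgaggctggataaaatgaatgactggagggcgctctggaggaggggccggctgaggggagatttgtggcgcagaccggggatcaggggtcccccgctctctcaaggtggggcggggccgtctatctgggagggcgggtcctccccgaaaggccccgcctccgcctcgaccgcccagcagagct
SREBF2: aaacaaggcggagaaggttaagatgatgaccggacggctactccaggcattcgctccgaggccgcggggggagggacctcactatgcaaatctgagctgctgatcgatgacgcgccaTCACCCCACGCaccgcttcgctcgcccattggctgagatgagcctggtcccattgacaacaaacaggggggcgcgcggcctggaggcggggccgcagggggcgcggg
The INSIG2 stretch of 231 bases held 2 matches, 1 to GCGTG and 1 to ACGTG, both on the minus strand. The INSIG1 stretch of 148 bases held 3, and the SREBF1 stretch of 234 bases held 0. In the SREBF2 stretch of 224 bases the TCACNCCAC match and a GCGTG match on the minus strand shared bases. RefSeq windows were matched for 27 of the 31 genes, 36 windows in all. In the 250 bases before the start, TCACNCCAC was found for 1 gene, SREBF2, and in 0.883% of 35116 windows of all genes. ACGTG was in 25.0% of the 36 windows, against 18.5% of all windows, and GCGTG in 72.2%, against 32.2%. These are letter matches and not binding sites, and their relation to the RNA changes was not tested.

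The enzymes of the early mevalonate pathway were either lower in hypoxia or not called. ACAT2, a cytosolic thiolase that joins acetyl-CoA units, had 7.91, 7.54 and 8.85 CPM in hypoxia and 26.0, 28.2 and 24.2 CPM in normoxia, and fell 3.21-fold (log2 change -1.68 ± 0.14, edgeR adjusted p = 3.00e-06). ACAT2 shares exon bases with 3 annotated genes on the opposite strand, with the longest overlap over 33.9% of its exon length, so its level is uncertain. PMVK, the phosphomevalonate kinase, had 16.8, 12.9 and 11.4 CPM in hypoxia and 19.1, 20.6 and 27.3 CPM in normoxia, and fell 1.64-fold (log2 change -0.71 ± 0.19, edgeR adjusted p = 0.00671). The other kinase and the decarboxylase, MVK and MVD, had log2 changes of 0.16 ± 0.14 and 0.04 ± 0.20 (edgeR adjusted p = 0.349 and 0.854), with overlapping groups.

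HMGCS1, the cytosolic HMG-CoA synthase, had 43.3, 49.0 and 19.7 CPM in hypoxia and 56.8, 58.5 and 55.1 CPM in normoxia. Every hypoxia library lay under every normoxia library, but hypoxia replicate 3 stood at 0.426 of the mean of the other hypoxia libraries. The log2 change of -0.62 ± 0.30 was not called (edgeR adjusted p = 0.116), whereas DESeq2 (adjusted p = 0.0328) and limma-voom (adjusted p = 0.0254) called it. Without hypoxia replicate 3 it was -0.33 and called (adjusted p = 0.0092), and without hypoxia replicate 2 it was -0.89 and called (adjusted p = 0.0288). The summed level of the 5 early enzymes was 94.8 ± 19.8 CPM in hypoxia and 138 ± 2.88 CPM in normoxia (SD, n = 3 each), a ratio of 0.686.

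In the isoprenoid stage 2 of 4 enzymes fell, which is 50% called, beside 62.2% of all tested genes called in either direction. FDPS, which makes farnesyl diphosphate, had 18.0, 16.9 and 12.5 CPM in hypoxia and 27.4, 33.5 and 43.5 CPM in normoxia. All hypoxia values lay lower, and the fall was 2.21-fold (log2 change -1.15 ± 0.20, edgeR adjusted p = 0.000499). IDI1, the isomerase that supplies the reactive isoprenoid unit, had 40.9, 38.1 and 21.2 CPM in hypoxia and 55.8, 59.4 and 59.8 CPM in normoxia, and fell 1.76-fold (log2 change -0.82 ± 0.21, edgeR adjusted p = 0.00834). Hypoxia replicate 3 was again the lowest.

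GGPS1 and FDFT1 take farnesyl diphosphate in different directions, to geranylgeranyl diphosphate and to squalene. GGPS1 had 11.6, 6.73 and 16 CPM in hypoxia and 17.3, 18.3 and 18.3 CPM in normoxia, a log2 change of -0.63 ± 0.25 just outside the edgeR threshold (adjusted p = 0.0504) and called by DESeq2 (adjusted p = 0.0314) and limma-voom (adjusted p = 0.0375). Its change was -1.0 and called without hypoxia replicate 3 (adjusted p = 0.000518), and -0.38 and not called without hypoxia replicate 2 (adjusted p = 0.103). GGPS1 shares 37.3% of its exon length with TBCE on the same strand, so its level is uncertain. FDFT1, squalene synthase, had 137, 129 and 93.8 CPM in hypoxia and 136, 143 and 173 CPM in normoxia, overlapping groups, with a log2 change of -0.33 ± 0.15 (edgeR adjusted p = 0.0723). Without hypoxia replicate 1 it was -0.45 and called (adjusted p = 0.0301), and without hypoxia replicate 3 it was -0.21 and not called (adjusted p = 0.0897). The 4 enzymes summed to 180 ± 33.0 CPM in hypoxia and 262 ± 29.7 CPM in normoxia (SD, n = 3 each), a ratio of 0.690.

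**Figure D3:**
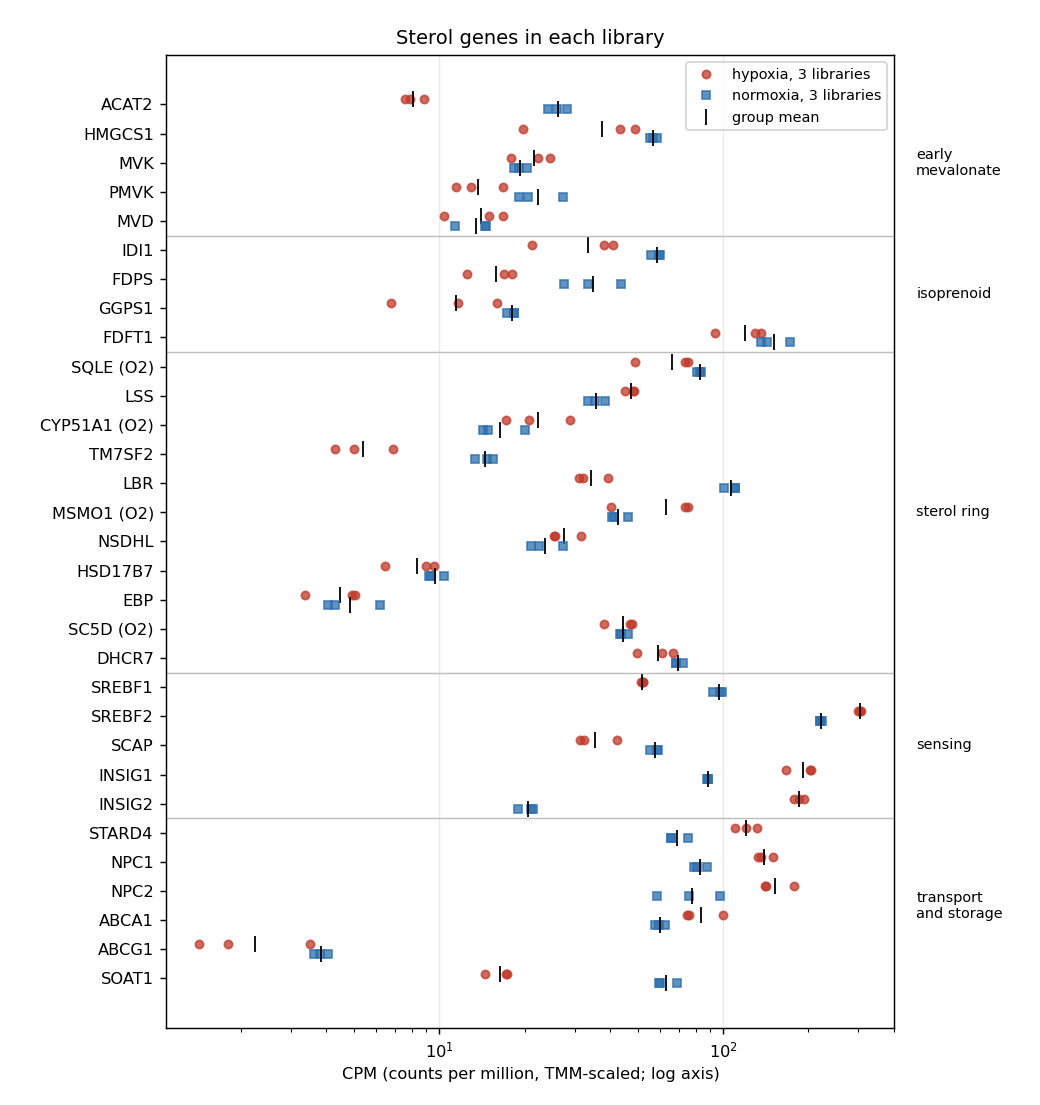
CPM of the 31 genes on a log axis, grouped by role, with a point per library, bars at group means and hypoxia drawn above normoxia for each gene. The widest gap is that of INSIG2, and the hypoxia points spread most in genes such as HMGCS1, at 19.7 to 49.0 CPM, and GGPS1, at 6.73 to 16 CPM.

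The 4 oxygen-consuming enzymes had log2 changes between -0.33 and 0.55, none of them called by edgeR. Differences between these enzymes were not tested. SQLE, squalene epoxidase, places the first oxygen on the molecule and had 75.5, 73.6 and 48.9 CPM in hypoxia and 83.2, 81.1 and 83.7 CPM in normoxia. The groups did not overlap, and the log2 change of -0.33 ± 0.15 was not called (edgeR adjusted p = 0.0774). CYP51A1, the cytochrome P450 that removes the C14 methyl group of lanosterol, had 28.9, 20.7 and 17.2 CPM in hypoxia and 20.1, 14.8 and 14.3 CPM in normoxia. These groups overlapped, and the log2 change was 0.43 ± 0.21 (edgeR adjusted p = 0.0956). Of its exon length, 79.4% is shared on the same strand with another annotated gene, so its level is uncertain.

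MSMO1, the C4 methylsterol oxidase, had 75.3, 73.3 and 40.3 CPM in hypoxia and 41.2, 46.4 and 40.7 CPM in normoxia. Hypoxia replicates 1 and 2 lay above every normoxia library, while hypoxia replicate 3 lay just under the lowest of them. The log2 change of 0.55 ± 0.21 fell just outside the threshold (edgeR adjusted p = 0.0502), and DESeq2 called it (adjusted p = 0.0191). SC5D, the sterol C5 desaturase, had 47.8, 47.1 and 38.2 CPM in hypoxia and 43.8, 46.4 and 43.2 CPM in normoxia, a log2 change of -0.01 ± 0.12 (edgeR adjusted p = 0.959).

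Single libraries decided several of these values. Without hypoxia replicate 3, MSMO1 had a log2 change of 0.77 (edgeR adjusted p = 7.74e-06) and CYP51A1 0.56 (adjusted p = 0.0218), and both were called. Without hypoxia replicate 1 they were 0.38 (adjusted p = 0.145) and 0.18 (adjusted p = 0.431), and neither was called. SQLE was called without hypoxia replicate 1, at -0.46 (adjusted p = 0.0303), and without hypoxia replicate 2, at -0.43 (adjusted p = 0.047), but was -0.18 and not called without hypoxia replicate 3 (adjusted p = 0.0701). The summed level of the 4 enzymes was 227, 215 and 145 CPM in hypoxia and 188, 189 and 182 CPM in normoxia. That is a ratio of 1.05, between 0.964 and 1.19 when each library was left out in turn, and 0.845 with library totals alone, so that its direction was not settled. The other 16 enzymes summed to 462 ± 57.5 CPM in hypoxia and 665 ± 34.2 CPM in normoxia (SD, n = 3 each). Their ratio was 0.694, with 1 called higher and 6 lower. The difference between the oxygen-consuming enzymes and the others was not tested.

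**Figure D4:**
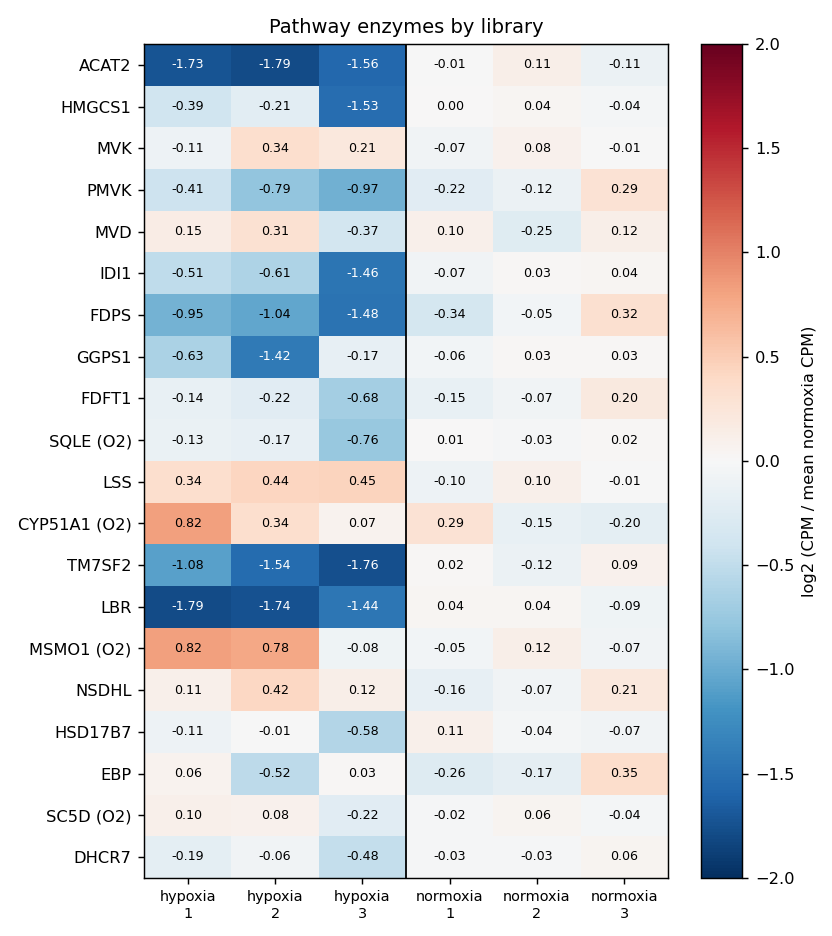
Log2 of each synthesis enzyme's CPM over its normoxia mean, 1 column per library with hypoxia left of normoxia, blue for lower and red for higher, and O2 beside oxygen-consuming steps. Hypoxia replicate 3 has the lowest value in all 4 oxygen-consuming enzymes and in 13 of the 20 enzymes among the hypoxia libraries.

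Among the other ring-forming and ring-trimming enzymes, the reductases of the C14 position fell and the cyclase rose. LSS, which folds epoxidised squalene into lanosterol, had 45.1, 48.3 and 48.7 CPM in hypoxia and 33.3, 38.2 and 35.5 CPM in normoxia, and rose 1.33-fold (log2 change 0.41 ± 0.11, edgeR adjusted p = 0.00584). With library totals alone the change was 0.10 and not called (adjusted p = 0.458), and with no filter on low counts it was 0.29 (adjusted p = 0.117). LBR, a C14 sterol reductase that is also a lamin and chromatin binding protein of the inner nuclear membrane, had 31, 32.1 and 39.4 CPM in hypoxia and 110, 110 and 100 CPM in normoxia. It fell 3.12-fold (log2 change -1.64 ± 0.12, edgeR adjusted p = 8.49e-07). TM7SF2, the other C14 reductase, had 6.85, 4.99 and 4.27 CPM in hypoxia and 14.7, 13.4 and 15.5 CPM in normoxia, and fell 2.74-fold (log2 change -1.45 ± 0.20, edgeR adjusted p = 9.53e-05). The log2 difference LBR minus TM7SF2 averaged 2.66 in hypoxia and 2.87 in normoxia, a difference of -0.21 (two-sided exact permutation p = 0.60) that was 0.04 without hypoxia replicate 1, -0.47 without hypoxia replicate 3 and -0.13 without normoxia replicate 2.

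The remaining ring enzymes were not called. DHCR7, which reduces the sterol C7 double bond, had 60.8, 66.7 and 49.8 CPM in hypoxia and 68.2, 68.3 and 72.4 CPM in normoxia, a log2 change of -0.24 ± 0.12 (edgeR adjusted p = 0.0988). It was -0.35 and called without hypoxia replicate 2 (adjusted p = 0.0356), and -0.15 and not called without hypoxia replicate 3 (adjusted p = 0.146). NSDHL and HSD17B7, which act with MSMO1 in removing the C4 methyl groups, had log2 changes of 0.22 ± 0.14 and -0.23 ± 0.19 (edgeR adjusted p = 0.203 and 0.323). A pseudogene copy of HSD17B7 held 188 counts over the 6 libraries, which is 22.7% of the 830 counts of HSD17B7, so reads may be split between them. EBP, the sterol isomerase, had 5.06, 3.36 and 4.94 CPM in hypoxia and 4.04, 4.29 and 6.19 CPM in normoxia (log2 change -0.11 ± 0.26, edgeR adjusted p = 0.734). The 11 ring enzymes summed to 382 ± 50.4 CPM in hypoxia and 451 ± 3.36 CPM in normoxia (SD, n = 3 each), a ratio of 0.846.

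The spread inside the hypoxia group had a pattern of its own. Hypoxia replicate 3 had the lowest value of its group in 13 of the 20 enzymes, 65.0%, against 38.8% of all tested genes. Its level over the mean of the other hypoxia libraries had a median of 0.746 over the enzymes and 0.674 over the oxygen-consuming enzymes, beside 0.983 over all tested genes. The ratios were 0.426 for HMGCS1, 0.538 for IDI1 and 0.543 for MSMO1. The 5 control genes had a median ratio of 1.01 and the 6 transport genes 1.02. This library also had the largest total of its group, 18447885 counts, and stood apart on the second principal component, and the part of either in these values was not tested.

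Of the 6 transport, export and storage genes, 4 were called higher, SOAT1 was called lower and ABCG1 was not called. Over all tested genes, 31.2% were called higher and 62.2% were called in either direction. With library totals alone, 3 of the 6 genes were called higher and 2 lower. The difference between these 6 genes and all tested genes was not tested. NPC1 and NPC2, the membrane and soluble proteins that pass cholesterol out of the lysosome, both rose. NPC1 had 132, 150 and 136 CPM in hypoxia and 79.3, 88.0 and 80.7 CPM in normoxia, a 1.69-fold rise (log2 change 0.75 ± 0.09, edgeR adjusted p = 5.20e-05). NPC2 had 177, 140 and 141 CPM in hypoxia and 58.4, 76.0 and 97.8 CPM in normoxia, a 1.98-fold rise (log2 change 0.98 ± 0.18, edgeR adjusted p = 0.00117). The normoxia values of NPC2 were wide apart, yet all lay under the hypoxia values. The log2 difference NPC1 minus NPC2 averaged -0.13 in hypoxia and 0.13 in normoxia, a difference of -0.25 (two-sided exact permutation p = 0.40) that was -0.10 without hypoxia replicate 1, -0.094 without normoxia replicate 1 and -0.45 without normoxia replicate 3. STARD4, a cytosolic sterol carrier, had 120, 132 and 110 CPM in hypoxia and 65.7, 74.9 and 65.4 CPM in normoxia, and rose 1.76-fold (log2 change 0.81 ± 0.10, edgeR adjusted p = 6.17e-05).

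The sterol exporters differed. ABCA1, which loads cholesterol onto apolipoprotein A-I, had 74.9, 75.7 and 100 CPM in hypoxia and 59.4, 62.3 and 57.4 CPM in normoxia, and rose 1.40-fold (log2 change 0.49 ± 0.12, edgeR adjusted p = 0.00553). Without hypoxia replicate 3, the highest library, the change was 0.31 and still called (adjusted p = 0.00631), and with library totals alone it was 0.18 and not called (adjusted p = 0.26). ABCG1, which exports cholesterol to larger lipoproteins, had 1.79, 1.43 and 3.49 CPM in hypoxia and 4.04, 3.62 and 3.79 CPM in normoxia. Hypoxia replicate 3 came close to normoxia, and the log2 change of -0.71 ± 0.33 was not called (edgeR adjusted p = 0.0808). It was -1.27 and called without that library (adjusted p = 0.00253). The log2 difference ABCA1 minus ABCG1 averaged 5.23 in hypoxia and 3.92 in normoxia, a difference of 1.30 (two-sided exact permutation p = 0.10, 0.167 adjusted over 5 pairs). Per kilobase, ABCA1 stood 20.1 times as high as ABCG1 in hypoxia and 8.44 times as high in normoxia.

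SOAT1, which esterifies cholesterol for storage in lipid droplets, had the largest fall of the 31 genes. It had 17.3, 14.5 and 17.2 CPM in hypoxia and 60.1, 68.7 and 59.5 CPM in normoxia, tight in each group and far apart. The fall was 3.84-fold, a log2 change of -1.94 ± 0.12 (edgeR adjusted p = 4.06e-07). The 6 transport, export and storage genes summed to 515 ± 7.87 CPM in hypoxia and 355 ± 24.9 CPM in normoxia, a ratio of 1.45, and the 5 control genes to 766 ± 11.4 and 484 ± 5.84 CPM, a ratio of 1.58 (SD, n = 3 each). These sums weight abundant genes most and carry no test.

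Per kilobase of annotated exon, the most abundant of the 31 genes in hypoxia were NPC2 at 55.6, INSIG1 at 52.3, INSIG2 at 46.8 and SREBF2 at 40.1 CPM per kilobase. In normoxia SREBF2 at 29.3, FDFT1 at 28.95 and NPC2 at 28.2 CPM per kilobase led, INSIG1 followed at 24.3 and INSIG2 stood at 5.18 CPM per kilobase. Among the oxygen-consuming enzymes in hypoxia the order was MSMO1 at 21.8, SQLE at 15.3, SC5D at 7.97 and CYP51A1 at 6.21 CPM per kilobase. In normoxia it was SQLE at 19.2, MSMO1 at 14.8, SC5D at 7.99 and CYP51A1 at 4.57 CPM per kilobase. The place of CYP51A1 is uncertain, because 79.4% of its exon length is shared on the same strand with another annotated gene. Exon length is that of all annotated exons merged, which overstates the length of any 1 transcript.

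Further sterol genes were read from 7 lists, and 59 of 65 listed genes were tested. The lists were chosen with earlier results of these data known, and their difference from all tested genes was not tested. There 21 were called higher and 29 lower, 84.7%, with a median log2 change of -0.26, against 62.2% of all tested genes called, 31.2% higher and 31% lower. Of 10 genes for SREBP cleavage and sensor turnover, 2 rose and 6 fell. MARCHF6, an endoplasmic reticulum ubiquitin ligase, averaged 353 ± 25.6 CPM in hypoxia and 243 ± 12 CPM in normoxia (log2 change 0.54, edgeR adjusted p = 0.000528). ERLIN2, an endoplasmic reticulum scaffold protein, averaged 23.7 ± 2.69 CPM in hypoxia and 91.0 ± 3.23 CPM in normoxia (log2 change -1.95, adjusted p = 2.40e-07), and PAQR3, a Golgi anchor, had a log2 change of -1.38 (adjusted p = 8.78e-05). Of 17 intracellular sterol transfer genes, 7 rose and 8 fell, with GRAMD1A at 1.17 and STARD3 at 1.04 among the rises and OSBPL3 at -1.16 and GRAMD1C at -1.04 among the falls.

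Of 7 tested genes of lipoprotein uptake and cholesterol ester hydrolysis, 4 rose and 3 fell. The share called over all tested genes was 62.2%, with 31.2% called higher, and the difference from this list was not tested. LRP1, a large endocytic receptor, had 2033, 2412 and 2451 CPM in hypoxia and 351, 318 and 319 CPM in normoxia, a 6.98-fold rise (edgeR adjusted p = 2.89e-08). VLDLR had 154, 156 and 141 CPM in hypoxia and 25.9, 29.3 and 25.1 CPM in normoxia, a 5.62-fold rise (edgeR adjusted p = 2.78e-08). LRP8, a receptor of the same family, had 5.38, 4.69 and 4.70 CPM in hypoxia and 32.2, 32.3 and 31 CPM in normoxia, a 6.48-fold fall (edgeR adjusted p = 1.08e-07). LIPA, the lysosomal acid lipase that frees cholesterol from its esters, fell 1.59-fold. The rises in this list numbered 2 without normoxia replicate 1 and 2 without normoxia replicate 2.

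Of 8 oxysterol receptor and target genes, 3 rose and 2 fell, 62.5% beside 62.2% of all tested genes. RXRB, a partner of the oxysterol receptors, averaged 49.8 ± 4.16 CPM in hypoxia and 30.7 ± 2.38 CPM in normoxia (log2 change 0.69, edgeR adjusted p = 0.000343). Of 6 oxysterol and bile acid oxidases 1 was tested, HSD3B7, which rose by 0.69. Of 4 genes of acetyl-CoA supply, 3 fell and 1 rose, with ACLY, which makes cytosolic acetyl-CoA from citrate, at a log2 change of -1.0 and the mitochondrial thiolase ACAT1 at -1.16. The citrate carrier SLC25A1 had 134, 120 and 68.4 CPM in hypoxia and averaged 64.0 ± 3.96 CPM in normoxia (log2 change 0.74, edgeR adjusted p = 0.0192), and its call was lost without normoxia replicate 2. Of 12 genes on the isoprenoid branches, 3 rose and 7 fell. RCE1 at 0.94 and FNTA at 0.60 process and farnesylate proteins, and the falls included COQ2 of ubiquinone synthesis at -1.40 and the prenylcysteine methyltransferase ICMT at -1.39.

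**Figure D5:**
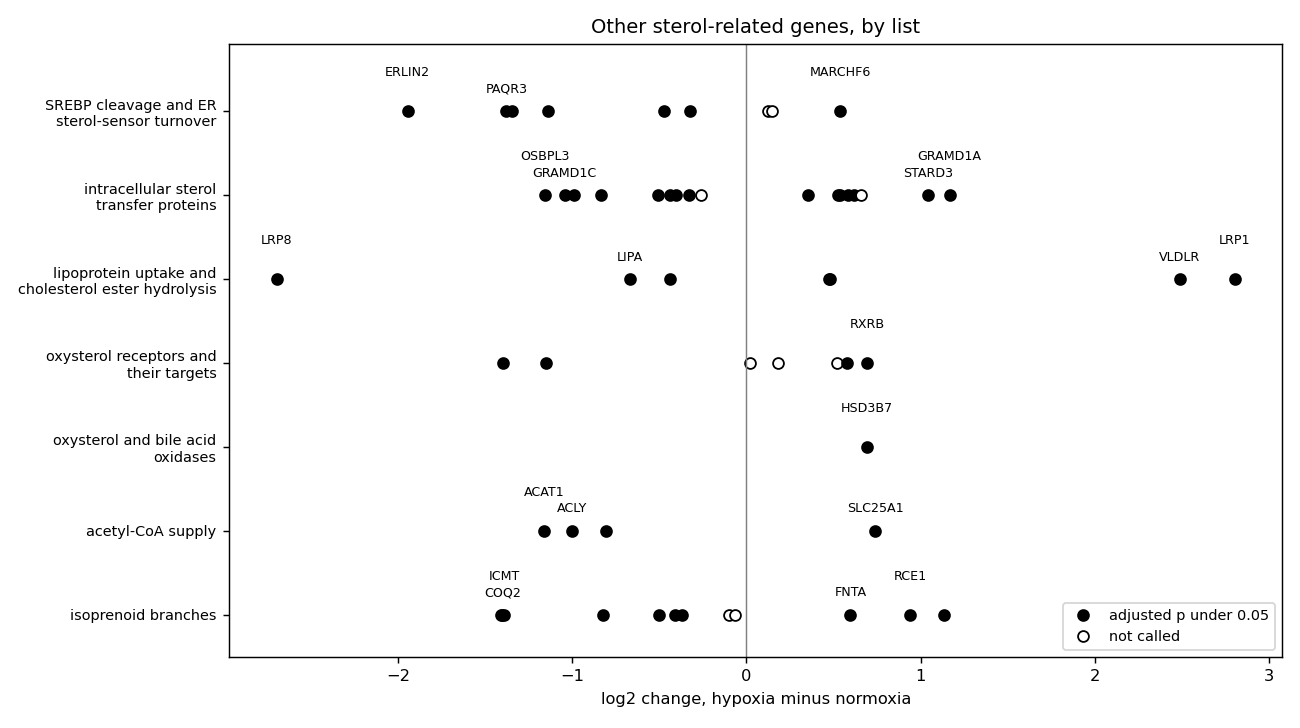
Log2 change, hypoxia over normoxia, of tested genes of the other 7 sterol lists, with the points of a list in 1 row, with called genes filled. LRP1 at 2.80 and LRP8 at -2.70 are the extremes and lie in the same list.

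Counts of genes that overlap others are uncertain, because the strand setting of the counting is not given in the sources used here. In GENCODE release 29, 15 of the 31 genes share exon bases with another annotated gene, 14 with a gene on the opposite strand and 4 with one on the same strand. INSIG1, INSIG2, SCAP, SOAT1 and LBR share none, and neither do SQLE, MSMO1 and SC5D.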

How the data were processed

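RNA of 6 IOMM-Lee libraries was sequenced, 3 from hypoxia and 3 from normoxia, with groups and replicate numbers taken from the sample titles. The deposited table gives the authors' raw counts by Ensembl ID. The submitters' processing notes name the build GRCh38.p13 and, without roles or order, DESeq2 1.37.5, featureCounts 2.0.1, HISAT2 2.1.0 and fastp 0.20.1. Neither strand setting nor annotation release is stated. Of 61860 lines, 1 without a gene, with 0.00243% of the counts, was left out. A second deposited table of normalized values was not used here.

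The main test was edgeR's quasi-likelihood F test (version 4.0.16, R 4.3.3, robust), after filterByExpr (minimum count 10, minimum total 15) and TMM scaling, with Benjamini-Hochberg adjustment over 16411 genes at 0.05. The SE is the log2 change divided by the square root of F. Log2 CPM used a prior count of 2. CPM sums by role have no test, and pairs of genes were compared by exact permutation over libraries. Symbols, coordinates and merged exon length come from GENCODE release 29 on GRCh38, promoters from RefSeq. Chi-square per gene between replicates, scaled by count totals alone, was 5.88 to 38.1, above sampling noise. Such spread does not show that the replicates were separate cultures. Each library was counted as 1 sample. Only the edgeR fit was tested on simulated counts, in which far fewer genes changed than were called here. Alternatives were DESeq2 1.42.0, limma-voom (limma 3.58.1), RLE, upper-quartile and library-total scaling, no filter, a stricter filter (CPM of 1 or more in 3 libraries), a replicate block, and each library left out. The 31 genes and the lists were chosen with earlier results of these data known. All 31 are named. From each other list, up to 2 called genes per direction with a mean CPM of 10 or more and the largest change are named, plus the oxygen-responsive and marker genes. Of the genes this rule takes, 2 are not reported here by name or drawn.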

Additional observations from a re-analysis of the deposited data

How the results depend on the processing

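Of the 17 called genes, 14 kept their call under all 14 alternatives, and the exceptions were LSS, SREBF2 and ABCA1. Library totals alone moved the median of all genes by -0.31. With no filter on low counts the median differed by -0.17, but over 40297 genes rather than 16411. With library totals alone, 5 of the 31 genes were higher and 17 lower, and with no filter 15 were lower. With library totals alone the counts of higher genes were 1 for SREBP cleavage, 2 for sterol transfer, 2 for lipoprotein uptake and 0 for acetyl-CoA supply. With each library left out, 8 to 10 of the 31 genes were higher and 9 to 12 lower, lipoprotein uptake had 2 to 4 higher and acetyl-CoA supply 0 to 1. Summed CPM ratios with library totals alone were 0.683 for the ring stage, 1.28 for the control genes, 1.17 for transport, 0.561 for the enzymes that use no oxygen and 0.845 for those that do. SQLE at -0.64, SC5D at -0.32, HSD17B7 at -0.54 and ABCG1 at -1.03 were called lower with library totals alone, as were HMGCS1, GGPS1, FDFT1 and DHCR7. With no filter the added calls were these without SC5D and HSD17B7, plus MSMO1 higher. MSMO1 was also called with RLE scaling and the stricter filter, and GGPS1 and FDFT1 with upper-quartile scaling.

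Among the 31 genes, directions turned in MVK, NSDHL, MVD, SC5D and EBP, none of them called. With library totals alone MVK was -0.14, NSDHL -0.081 and MVD -0.26. MVD was -0.021 with limma-voom, -0.018 with upper-quartile scaling and -0.085 with no filter. SC5D was 0.00040 with the stricter filter. With each library left out, MVD ranged from -0.12 to 0.20, EBP from -0.25 to 0.090 and SC5D from -0.079 to 0.065. The difference LBR minus TM7SF2, also not past its test's threshold, lay between -0.47 and 0.036. The cause of these shifts was not tested.

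The labels do not say whether replicate numbers pair the samples. Deviations of same-numbered libraries correlated at -0.106, 0.0864 and -0.0378, and those of differently numbered libraries at -0.142 to 0.182. With 3 libraries per group, such values cannot settle whether the samples were paired. With a replicate block, 4862 genes were higher and 4906 lower in all, and of the 31 genes 10 were higher and 10 lower, with MSMO1, CYP51A1 and GGPS1 added.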
